A study of Caenorhabditis elegans with 2 samples.

Results

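Splicing and mRNA processing genes were examined for binding of K11D2.4, a protein with a C2H2-type zinc finger domain per RefSeq, near their transcript starts. They were taken by symbol alone: protein-coding genes named prp, snr, snrp, rsp, sap, uaf, lsm, hrp, cpf, pab or mog with a number. This gave 54 of the 19973 protein-coding genes of the nuclear chromosomes, and no gene of the present annotation carried an hrp symbol. The data were ChIP-seq peak lists from whole Caenorhabditis elegans young adults of strain RW12320. In this strain K11D2.4 carries a TY1, EGFP and 3xFLAG insertion made by CRISPR at its own locus (allele st12320). Animals were collected at 62 hours after starvation arrest as first-stage larvae, and chromatin was precipitated with an antibody against GFP. The description of the samples gives that antibody, while their antibody field names K11D2.4. There was 1 group of 2 biological replicates, hence no comparison between groups and no p-value. Each sample pooled the tissues of whole animals, so binding in fewer cells and weaker binding per cell cannot be told apart. Untagged animals and input chromatin were not analysed here, and the part of unspecific precipitation was not tested.

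Splicing removes introns from pre-mRNA on the spliceosome, a machine built from small nuclear RNAs and their proteins (snRNPs). Sm and LSm proteins form rings on these RNAs, SR proteins help to recruit the machinery to exons, and DEAH-box helicases drive its rearrangements. Cleavage and polyadenylation factors then form the 3′ end of the mRNA, and poly(A)-binding proteins coat its tail. In worms the mog genes among these are also known for the switch of the hermaphrodite germline from sperm to oocytes.

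A gene was counted as bound when a summit, the base of a peak with most signal, lay in its promoter window. The window reached 1000 bp before and 200 bp past any transcript start of the gene, and distances upstream of a start are given as negative. In the main list, the pooled conservative list of 1927 peaks, 12 of the 54 genes (22.2%) had such a summit, against 5.78% of all protein-coding genes, a ratio of 3.85. They were mog-4, prp-19, rsp-1, rsp-2, snr-4, lsm-7, pab-2, lsm-3, prp-31, prp-8, cpf-2 and sap-140. These rest on 11 peaks, since rsp-1 and rsp-2 share 1.

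The sequences at 5 of these summits are shown because they include the highest peak, a peak next to an snRNA gene, and 3 peaks that hold the same pair of words. Each runs 50 bp to either side of the summit and reads 5′ to 3′ on the strand of the gene named. They come from the RefSeq sequence of WBcel235, the same build as ce11. Capitals mark TGCGTCAGCA or its other strand TGCTGACGCA, and GAAACGCGC or its other strand GCGCGTTTC. The intervals are II:14561819-14561919 (minus strand) for mog-4, V:11980027-11980127 (minus) for snr-4, II:11453160-11453260 (plus) for rsp-1, IV:10933212-10933312 (plus) for lsm-7 and III:7499662-7499762 (plus) for sap-140.
mog-4: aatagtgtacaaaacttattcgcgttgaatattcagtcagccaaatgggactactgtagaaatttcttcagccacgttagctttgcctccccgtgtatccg
snr-4: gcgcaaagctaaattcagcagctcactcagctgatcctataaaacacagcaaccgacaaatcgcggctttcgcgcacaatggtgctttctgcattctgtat
rsp-1: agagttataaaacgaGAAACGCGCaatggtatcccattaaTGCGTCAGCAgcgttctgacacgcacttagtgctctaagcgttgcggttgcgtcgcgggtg
lsm-7: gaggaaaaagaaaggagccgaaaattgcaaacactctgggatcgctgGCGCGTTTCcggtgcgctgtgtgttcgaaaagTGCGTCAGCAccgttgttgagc
sap-140: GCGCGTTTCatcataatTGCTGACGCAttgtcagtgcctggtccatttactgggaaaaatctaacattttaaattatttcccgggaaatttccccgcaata

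The words were found by a search, not fixed in advance. TGCGTCAGCA was the longest word held within 50 bp of the summit by at least 3 of the 11 peaks. GAAACGCGC is another word that the same 3 peaks hold, picked after their sequences were seen, so the count in these peaks is how both were chosen. The counts in other peaks did not enter that choice. Distances were taken from the summits of the main list. From the replicates' own summits, TGCGTCAGCA lay farther than 50 bp at lsm-7 in both replicates. At sap-140 both words lay farther than 50 bp from replicate 1's summit. Only the peak between rsp-1 and rsp-2 held both words within 50 bp of both replicates' summits. TGCGTCAGCA lay within 50 bp of the summit in 15 of the 1916 other main peaks (0.783%), against 2 of 3854 windows of the same length centred 250 bp to either side of all main summits (0.0519%). It was in 13 of 19973 windows of 101 bp centred 150 bp upstream of the outermost start of each protein-coding gene (0.0651%). GAAACGCGC was in 25 of the other main peaks (1.30%), in 0.104% of the flanking windows and in 0.145% of the promoter windows. The promoter windows were not kept clear of the 3 peaks, and that of rsp-1 holds both words. The 6 nuclear chromosomes hold TGCGTCAGCA at 85 places, and 18 of these (21.2%) lay wholly within 50 bp of a main summit. For GAAACGCGC it was 30 of 436 places (6.88%). Both counts include the places in the 3 peaks that the words were chosen from.

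The strands and spacing of the pair differed among the 3 peaks. In the sequences as shown, GAAACGCGC or its other strand came first in each. Between rsp-1 and rsp-2 the words were 16 bases apart, at lsm-7 23 and at sap-140 8. At rsp-1 the sequence read GAAACGCGC and then TGCGTCAGCA, whereas lsm-7 read GCGCGTTTC and then TGCGTCAGCA, and sap-140 read GCGCGTTTC and then TGCTGACGCA. CGCAGA and ACGCAG, 2 overlapping words known from earlier work on these peaks to be frequent at their centres, were in 0 of the 11 peaks. At least 1 of them was in 346 of the 1916 other main peaks (18.1%), searched on both strands. The GC content of the 101 bp was 39.6% to 57.4% with a median of 47.5% at the 11 peaks, against a median of 48.5% at the 986 other main peaks in promoters.

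The highest peak of the family belonged to mog-4, whose product RefSeq names a putative splicing helicase. Its signal, the authors' peak height on a scale the sources used here do not give, was 798 in the main list, rank 11 of 1927. Replicate 1 had 351 there and replicate 2 had 453, ranks 22 and 7 of their ranked lists of 41734 and 42705 peaks. The peak at II:14561721-14562001 had its summit at -270 bp from mog-4, and no other protein-coding promoter held it. The replicates' summits were 3 bp apart. Of the other 5 mog genes none had a main promoter peak. Their highest ranked promoter signals were 24.4 in replicate 1 (mog-3) and 28.2 in replicate 2 (mog-7), so mog-4 stood apart from its name series in both replicates. Outside its promoter window, mog-3 had a peak in its coding sequence, with 34.0 in replicate 1 and 48.5 in replicate 2.

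Among the factors named prp, which act at several steps of spliceosome assembly and catalysis, 3 of 13 had a main promoter peak. prp-19 encodes the ubiquitin ligase of the spliceosome's Prp19 complex. Its peak had a signal of 290, with 146 in replicate 1 and 145 in replicate 2. The summit lay at -637 bp from prp-19 but at -38 bp from the divergent gene K10D2.5 and at -757 bp from emb-1, a subunit of the anaphase-promoting complex. prp-31 encodes a U4/U6 snRNP protein and had a signal of 105, with 39.05 in replicate 1 and 64.1 in replicate 2. Its summit, at -189 bp, was also at -438 bp from mat-1, which encodes another subunit of the anaphase-promoting complex. prp-8 encodes the large protein at the heart of the spliceosome. It had a signal of 81.2, with 32.4 in replicate 1 and 57.8 in replicate 2, and its summit at -397 bp was shared with bath-42 at -593 bp. The replicates were close at prp-19, while at prp-31 and prp-8 replicate 1 was lower (ratios to replicate 2 of 0.610 and 0.560) and had no thresholded peak.

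prp-40, whose product has WW domains, had a peak in replicate 2 alone. Its signal there was 75.5, rank 499 of the ranked list, at -183 bp and shared with clu-1 at -432 bp. No ranked peak of replicate 1 overlapped it. Its score, a whole number of at most 1000 given to each peak, was 819, and the lowest score in replicate 2's thresholded list was 830. prp-3 and prp-17 had no ranked promoter summit in either replicate.

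Of the Sm proteins, the ring of the spliceosomal snRNPs, 1 of 7 had a main promoter peak. This was snr-4, which encodes Sm D2, with a signal of 199 in the main list, 89.4 in replicate 1 and 107 in replicate 2. The summit lay at -354 bp from snr-4 and at -41 bp from an snRNA gene on the other strand (C52E4.8 in RefSeq, T11F9.15 in Ensembl), so the nearest start of any gene there was that of the snRNA. snr-1, for Sm D3, had 66.7 at -382 bp in replicate 2, and the summit was also at -229 bp from snx-13. Replicate 1 had no ranked peak overlapping this one, and its highest promoter signal for snr-1 was 10.9 at another place. snr-2, for Sm B, had 28.0 in replicate 1 and 33.4 in replicate 2. Its summits, at -346 and -360 bp, lay nearer to W08E3.4 (-120 and -106 bp). All 7 Sm genes had a ranked promoter summit in replicate 1, against 45.1% of all protein-coding genes, and 5 of them in replicate 2, against 46.4%. The snr-3 summits of both replicates lay in a coding exon of rsp-5, and the snr-7 summit of replicate 1 in an intron of Y71F9B.6.

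Among the LSm genes, whose rings bind U6 snRNA or act in mRNA decay, 2 of 7 had a main promoter peak and lsm-6 had one in the other lists. lsm-7 had a signal of 124, with 52.1 in replicate 1 and 79.9 in replicate 2. Its summit lay at -240 bp, and at -59 bp from dnc-1, the dynactin subunit gene on the other side. lsm-3 had a signal of 110, with 64.7 in replicate 1 and 51.1 in replicate 2. That summit was in a coding exon of lsm-3 itself and counted as a promoter summit because it lay at -16 bp from an internal transcript start. It was the only one of the 12 that did not lie between genes. lsm-6 was absent from the main list but had 57.2 in replicate 1 and 54.6 in replicate 2, both in the thresholded lists. The second pooled list placed its peak at I:1701208-1701531 with a signal of 120. The summit lay at 9 bp from the start of lsm-6 in that list, at -18 bp in replicate 1 and at -144 bp in replicate 2. The replicates' summits also lay in the window of Y71G12B.13, at -762 bp in replicate 1 and -888 bp in replicate 2.

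The SR protein genes rsp-1 and rsp-2 lie head to head, and the summit between them was at -152 bp from rsp-1 and at -255 bp from rsp-2. Their shared peak of 87 bp had a signal of 205, with 96.8 in replicate 1 and 88.8 in replicate 2, and the replicates' summits were 2 bp apart. It cannot be told from these data which of the pair it belongs to. The other 6 rsp genes had no main promoter peak. rsp-6 had 28.9 in replicate 1 and 32.7 in replicate 2, at different places, and rsp-3 had 28.9 in replicate 1 and 32.2 in replicate 2. rsp-8 had 26.6 in replicate 1 and 38.6 in replicate 2, also at different places. The rsp-3 summits, at -274 bp in replicate 1 and -289 bp in replicate 2, lay nearer to spin-4 (-122 and -107 bp). All 8 rsp genes had a ranked promoter summit in replicate 1, against 45.1% of all protein-coding genes, and 7 in replicate 2, against 46.4%. Some of these summits lay inside other genes. In replicate 1 that of rsp-4 was in a coding exon of ndx-6 and that of rsp-6 in one of C33H5.13. The rsp-7 summit of replicate 1 was in an intron of snu-13.

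sap-140, a U2 snRNP-associated protein gene, had the lowest of the 11 peaks, with a signal of 66.2, 37.5 in replicate 1 and 44.3 in replicate 2. A higher peak (146) overlapped the outer edge of the sap-140 window, with its summit outside at -1155 bp. With any overlap counted, that peak took its place, at percentile 75.9 of the main list instead of 11.4. The summit of the main sap-140 peak (66.2) was at -26 bp from sap-140 and at -241 bp from C07H6.9, which RefSeq names a serpentine receptor. The replicates' summits were 82 bp apart, the widest gap among the 12 genes. sap-49, of the U2 snRNP subcomplex SF3B, had a ranked summit only in replicate 1 (20.8). Neither U2AF gene, for the reader of the 3′ splice site, had a main promoter peak. uaf-1 had no ranked promoter summit, and uaf-2 had 19.2 in replicate 1 and 37.95 in replicate 2, at different places. None of the 5 snrp genes was in the main list. snrp-3, for U1 snRNP protein C, had 47.7 at -185 bp in replicate 2's thresholded list, with no overlapping ranked peak in replicate 1, and snrp-40.1 and snrp-40.2 had no ranked promoter summit.

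Genes of 3′ end formation and of poly(A) binding had 1 of 2 each. cpf-2, a homologue of the 64 kDa subunit of cleavage stimulation factor, had a signal of 80.1 at -124 bp. Replicate 1 had 39.9 and replicate 2 had 40.7 there, and cpf-2 was the only one of the 12 in neither replicate's thresholded list. cpf-1, of the same factor, had no ranked promoter summit. pab-2, a poly(A)-binding protein gene on X, had a signal of 115.5 at -199 bp, with 60.4 in replicate 1 and 58.0 in replicate 2. Its paralogue pab-1 had 17.8 in replicate 1 and 10.1 in replicate 2, from overlapping peaks with summits at -488 and -693 bp. Both summits lay inside rpl-30, at -44 bp from its start in replicate 1 and at 107 bp in replicate 2.

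**Figure D1:**
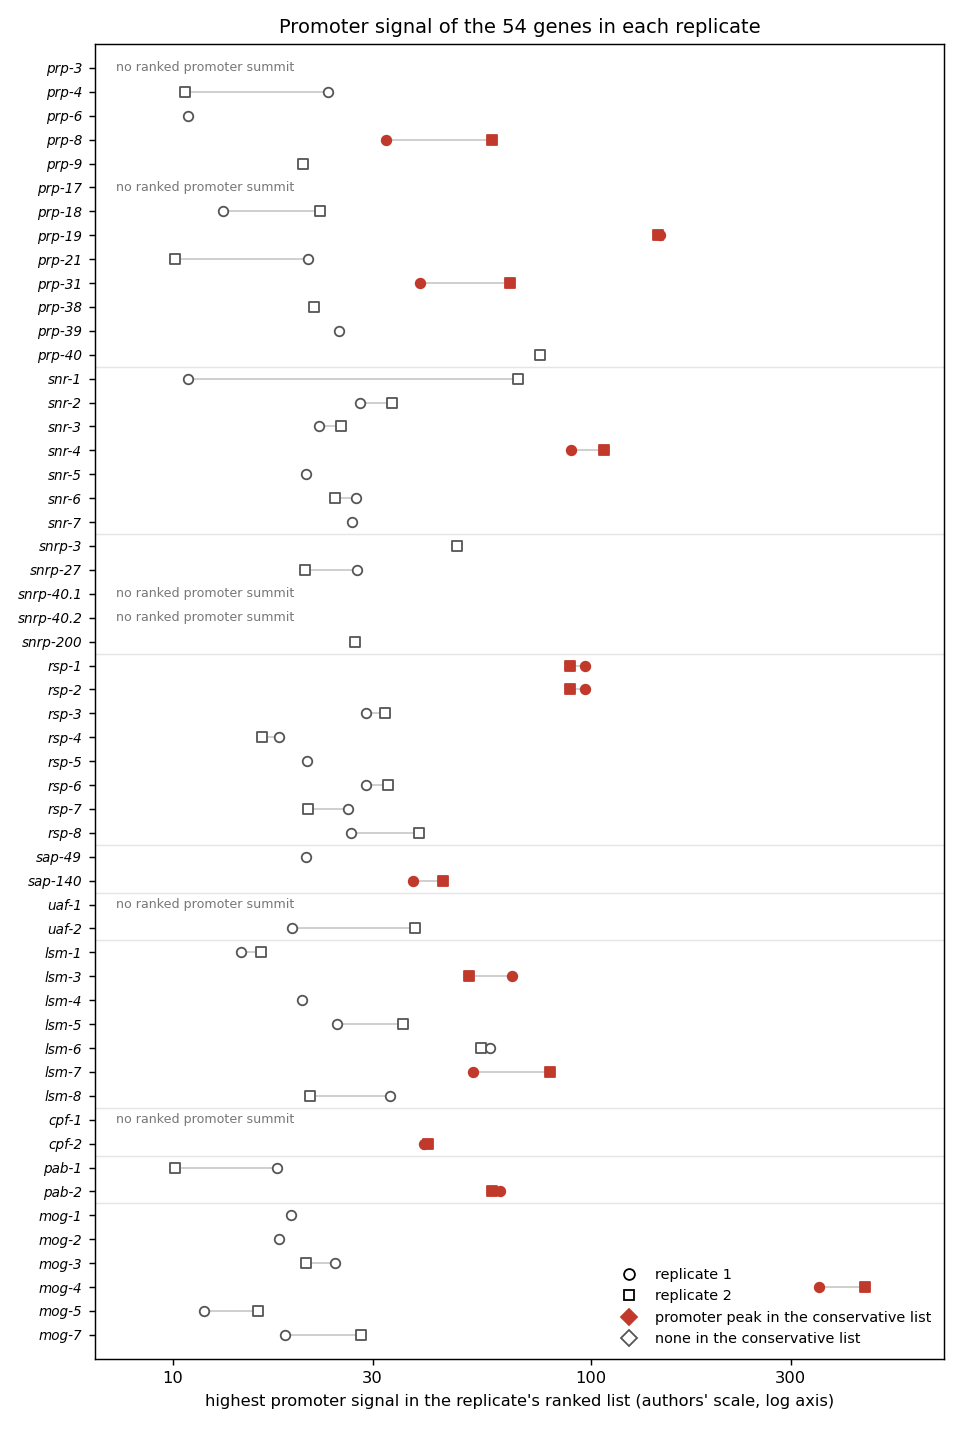
Highest signal in the promoter window of each of the 54 genes in the ranked list of replicate 1 (circles) and replicate 2 (squares), on a log axis, by symbol series. Filled red points are the 12 genes with a main promoter peak, mog-4 farthest right at 351 and 453; 6 genes had no ranked promoter summit in either replicate.

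The share was above that of all genes in each list, by a ratio that differed between lists. The second pooled list, of 1984 peaks, held 13 of the 54 genes, against 5.97% of all genes. Replicate 1's thresholded list of 959 peaks held 8 (14.8%), against 3.39% of all genes, and replicate 2's of 1141 held 14 (25.9%), against 4.08%. Main peaks that overlapped a peak of both of these lists marked 7 of the 54 genes (13.0%), against 2.64%. The ranked lists, which keep far weaker peaks, had a promoter summit at 43 of the 54 genes in replicate 1 (79.6%), against 45.1% of all genes, and at 39 in replicate 2 (72.2%), against 46.4%. Both ranked lists had one at 34 genes and neither at 6, which were cpf-1, prp-3, prp-17, snrp-40.1, snrp-40.2 and uaf-1. The median window was 1201 bp and the median number of distinct starts 1, both for the 54 genes and over all genes. Medians do not show how many genes have several starts, and the part of window size was not tested. These shares were not tested, because the 54 genes share peaks and neighbours and the list was named with earlier results known.

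**Figure D2:**
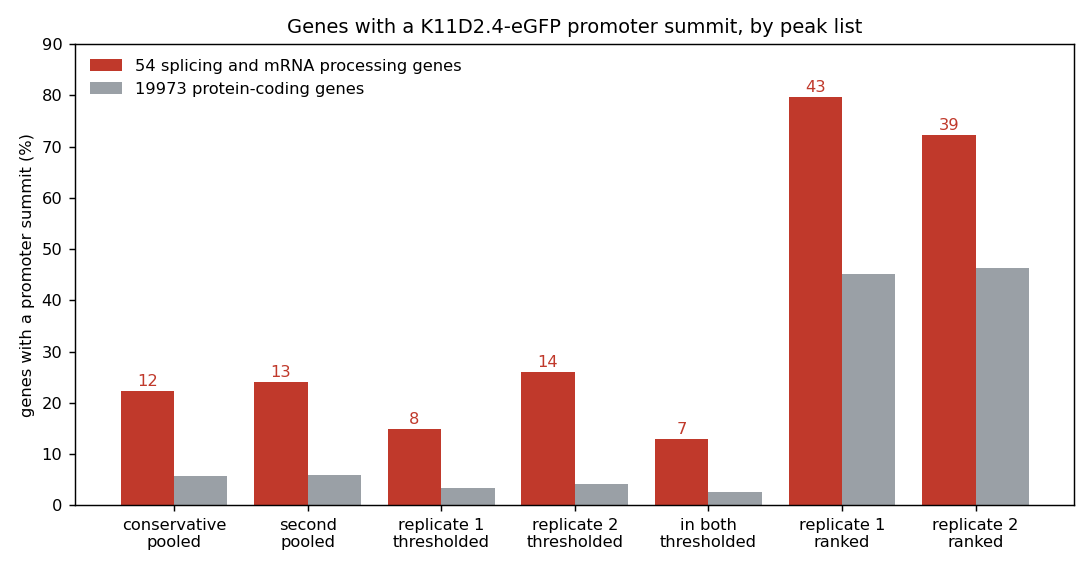
Share of genes with a promoter summit in each peak list, in percent, for the 54 splicing and mRNA processing genes (red, with the number of genes above the bar) and for all 19973 protein-coding genes (grey). The red bar is higher in all 7 sets, by a ratio of 6.35 in replicate 2's thresholded list and 1.56 in its ranked list.

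Between the replicates the order of the 12 genes was similar. Replicate 1 was lower at 7 and higher at 5, with ratios to replicate 2 from 0.560 (prp-8) to 1.26 (lsm-3). The mean log2 ratio was -0.20 ± 0.37 (SD over the 12 genes). Their promoter summits stood between percentile 89.6 and 99.95 of replicate 1's ranked peaks by signal, and between 95.6 and 99.99 of replicate 2's. Across these 12 genes the Spearman correlation of the replicates' signals was 0.811, and across the 22 other genes with a summit in both ranked lists it was 0.329. Over all 34 it was 0.755, against 0.606 over the 6093 protein-coding genes with a promoter summit in both. A gene's highest summit could be a different peak in each replicate, as at snr-1, so these values are not agreement at the same sites throughout. Genes that share a peak are not independent here, and the main peaks were selected for reproducible ranking.

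**Figure D3:**
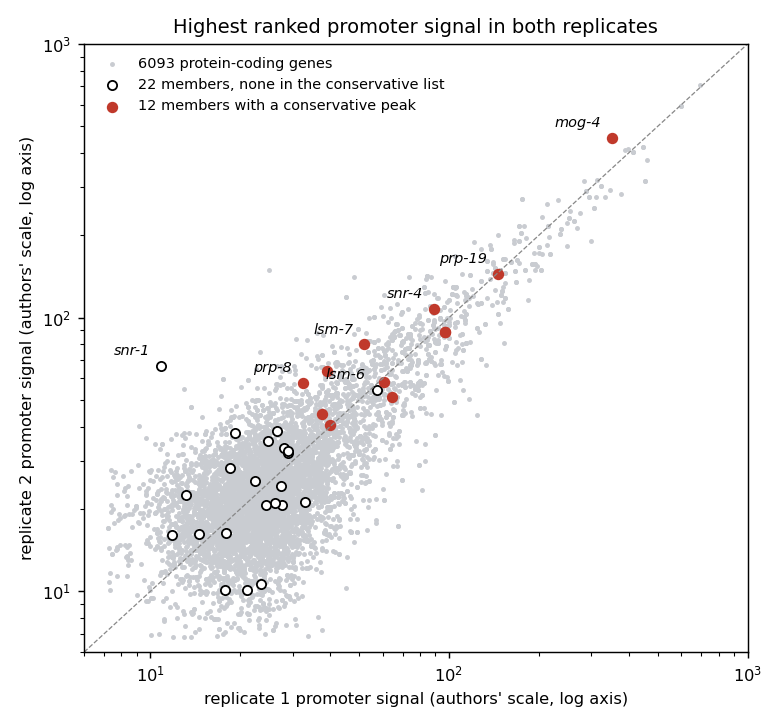
Highest ranked promoter signal in replicate 1 (x axis) and replicate 2 (y axis), both log axes, for 6093 protein-coding genes (grey), 22 of the splicing and mRNA processing genes with no main peak (open) and 12 with one (red). The dashed line marks equal signal; mog-4 is near the top right of all genes, and snr-1, at 10.9 and 66.7, lies farthest above the line among the open points.

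The 11 peaks spread over the range of the list by signal. Their median signal was 115.5, against 107 for the 986 other main peaks in promoters, and they ranged from percentile 11.4 to 99.5 of the main list. All 12 summits lay upstream of the start they were measured from, at a median of -219.5 bp, against -269.5 bp over all 1154 genes with a main promoter peak. Among the 42 genes with no main promoter peak, the summits nearest to a start were those at 239 bp past a start of rsp-3 (signal 72.4), at 720 bp past one of rsp-8 (153) and at -1290 bp from rsp-4 (113). The farthest inside was that of prp-19.

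Peaks shared with a divergent gene were common. Of the 12 genes, 7 (58.3%) shared their peak with a protein-coding gene on the opposite strand whose start lay on the other side of the summit, on 6 distinct peaks. Over all genes with a main promoter peak it was 457 of 1154 (39.6%). For prp-19, lsm-7 and rsp-2 the neighbour's start was nearer, 3 of 12 against 280 of 1154 (24.3%). The 5 genes with no divergent protein-coding gene at their peak were mog-4, snr-4, pab-2, lsm-3 and cpf-2, and the snr-4 peak lay beside the divergent snRNA gene.

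**Figure D4:**
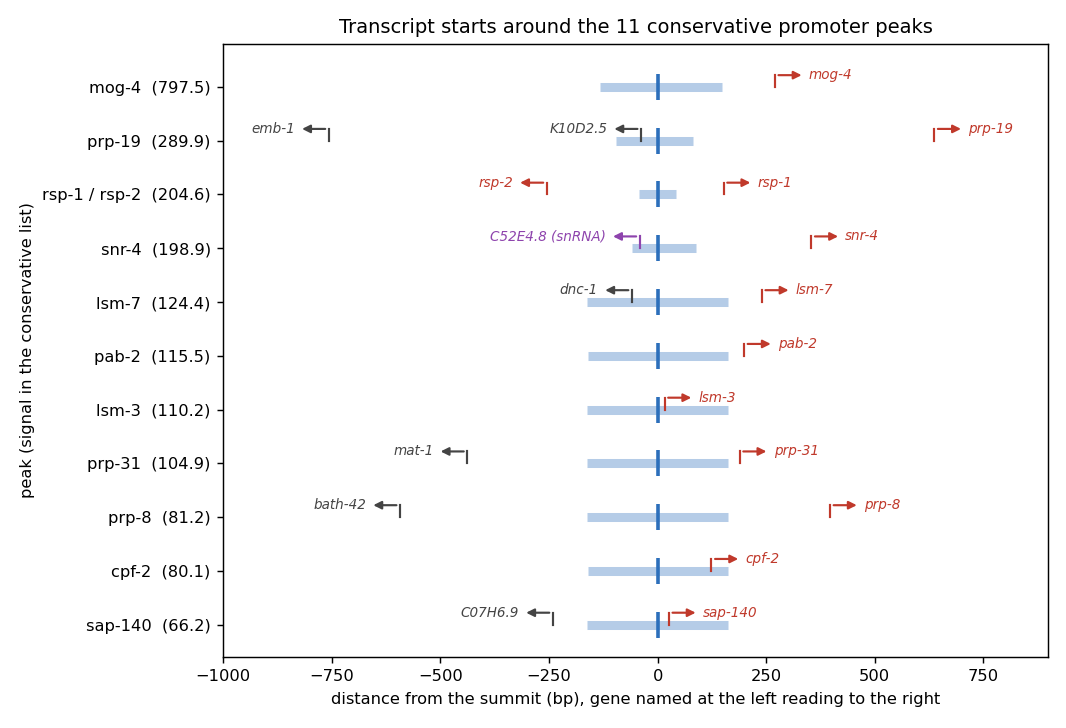
Transcript starts around the 11 main peaks, in bp from the summit (blue tick; pale bar, the peak), each drawn so that the gene named at the left reads to the right. Red arrows are the nearest starts of the splicing and mRNA processing genes, black arrows other protein-coding genes whose window holds the summit, and the purple arrow the snRNA gene C52E4.8, the snr-4 summit at -41 bp from it.

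Genes that follow closely behind another gene on the same strand, as genes inside worm operons do, were set apart by position. Of the 54 genes, 14 (25.9%) had the end of a same-strand protein-coding gene within 500 bp upstream, against 18.1% of all genes. Only lsm-3 among these 14 (7.14%) had a main promoter peak, and its summit lay at an internal start. Of the 40 others, 11 (27.5%) had one. Over all genes the shares were 4.32% of those with such a neighbour and 6.10% of the rest. lsm-6 and snrp-3, with peaks in other lists, were also among the 14.

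Other genes of splicing and mRNA processing, listed by name, also carried main promoter peaks. They were 24 of 116 (20.7%), against 5.78% of all genes. Of spliceosome factors and splicing regulators 12 of 54 had one. Among them were hrpk-1, of the hnRNP K family (180, with 96.1 in replicate 1 and 85.1 in replicate 2), hrpu-2 (167) and plrg-1 of the Prp19 complex (142). Of 3′ end formation genes 6 of 17 had one, led by cids-2 (191, a peak shared with phip-1), cfim-1 (134), the cleavage factor gene pcf-11 (110) and symk-1, for symplekin (106). The cfim-1 and symk-1 summits lay nearer to slc-25A42 (-16 bp) and F25G6.9 (-47 bp).

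Cap binding, exon junction and export genes had 2 of 15, both of the THO complex: thoc-5 (146) and thoc-7 (87.6), whose summit was nearer to the ribosomal protein gene rpl-29. Decay and surveillance genes had 4 of 30, all of the CCR4-NOT deadenylase. They were ntl-11 (476, with 248 in replicate 1 and 221 in replicate 2), ntl-2 (236, with 114 and 120), ccf-1 (72.1) and ntl-3 (65.1). The ccf-1 summit was nearer to trap-4.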

How the data were processed

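The authors deposited peak lists on build ce11, ranked or thresholded by the irreproducible discovery rate (IDR), per the file names and deposited notes. The authors' signal (peak height) and score columns were used as deposited, and the signal only within a list or between the replicates' lists of the same kind. The aligner, caller and read numbers are not given here by any source, so the depth is unknown. The main list was the pooled conservative list; 6 lists were used, and the pooled ranked lists were not.

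Genes and transcript starts came from Ensembl release 115 (WBcel235), and products and bases from RefSeq. Of several promoter summits the highest was taken. Words were searched on both strands. The members and lists were chosen with earlier results of these data known. Named are all members with a main promoter peak, the next 5 by the smaller replicate signal, those with no ranked summit, genes sharing a peak, and up to 4 per list of other genes (1 of these is not reported here); prp-40, snr-1, snrp-3, uaf-2, sap-49, pab-1 and the mog genes were added after their values were seen. Assignment was tested on simulated data. Of the other pathway names, 1 (brr-2) was not in the annotation used here. Tools were matplotlib 3.10.9, scipy 1.17.1, pandas 2.3.3 and numpy 2.4.6 on Python 3.11.15.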

Additional observations from a re-analysis of the deposited data

How the results depend on the processing

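With each replicate's own thresholded list alone, the count of 12 members with a promoter peak was 8 to 14, the median percentile of their peaks 42.8 to 68.2 (61.7 in the main list), the members nearer to another start 3 to 4, those sharing a divergent peak 4 to 8, peaks with CGCAGA or ACGCAG 0 to 1, and other pathway genes 12 to 17 (24 in the main list). Replicate 1 alone gave 8 members, without cpf-2, pab-2, prp-8, prp-31 and sap-140 and with lsm-6. Main peaks found in both replicates' lists gave 7 members, 4 sharing a divergent peak and 10 other pathway genes. These lists are shorter, and the share over all protein-coding genes was lower too. It was 3.39% in replicate 1's list, 4.08% in replicate 2's and 2.64% for main peaks in both, against 5.78% in the main list. The 50% of peaks with the highest signal gave 15 other pathway genes, and assignment to the nearest start left 4 members sharing a divergent peak. CGCAGA or ACGCAG was in 1 peak when peaks were assigned by any overlap, and in 1 within 100 bp of the summit. Apart from these, no count moved by over 1.5 times. In the other settings 9 to 13 members had a peak: prp-19 was lost with a promoter of 500 bp upstream and 100 bp downstream, and prp-19, lsm-7 and rsp-2 with the nearest start. mog-4, rsp-1, snr-4 and lsm-3 kept a promoter peak in all 8 alternatives of list and assignment. The nearest start was taken among protein-coding genes only. With all genes counted, the start nearest to the snr-4 summit is that of the snRNA gene (-41 bp, against -354 bp for snr-4). The causes were not tested. No paired analysis was possible because there was 1 group. With depth unknown, a missing peak in 1 replicate does not show absence of binding.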

Other observations

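Of the 54 genes, 4 (7.41%) had a main summit inside a coding exon of their own, outside their promoter window, against 108 of all 19973 protein-coding genes (0.541%). This count was made after the values were seen and was not tested. The highest was in rsp-8, 299 bp before the gene's end, with a signal of 153 (53.98 in replicate 1 and 86.6 in replicate 2), and no protein-coding promoter held it. lsm-7 had a second peak in its coding sequence (115.4, with 62.6 in replicate 1 and 45.1 in replicate 2), at -711 bp from dnc-1. The mog-3 peak (85.4) also lay at -619 bp from pqe-1, and the rsp-3 peak (72.4) at -641 bp from spin-4.

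The pair of words TGCGTCAGCA and GAAACGCGC, which joined the rsp-1 and rsp-2, lsm-7 and sap-140 peaks, was present within 50 bp of the summit in 5 of the 1916 other main peaks (0.261%). All 5 were in promoters, none of them of a splicing gene. They were those of hex-3 and fbxb-85, which share 1 peak (signal 244), the translation initiation factor gene eif-3.C (237), ucr-2.2 (142), ubxn-2 (129) and gakh-1 (127).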
